A study of Mus musculus with 15 samples.

Results

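Motor neurons of SMA mice were compared with those of WT mice, both given vehicle, over the genes measured in both. The comparison rests on 6 of the series' 15 libraries, SMA 1 to SMA 3 and WT 1 to WT 3. They hold RNA of motor neurons of the first 3 lumbar segments, taken from 6-day-old pups on an FVB background. The neurons had been labelled with cholera toxin subunit B (CTB), a tracer that motor neurons take up at their endings, and were cut out by laser-capture microdissection. WT stands for littermates with both mouse Smn alleles intact that also carry the human transgenes (Smn+/+;SMN2;SMNdelta7). SMA stands for mice that lack mouse Smn and carry the same human transgenes (Smn-/-;SMN2;SMNdelta7), a model of severe spinal muscular atrophy. Both sexes were used in equal proportions, and how many mice or cells stand behind a library is not given in the sources used here. The other 9 libraries, from SMA mice injected daily from postnatal day 0 with 5 mg/kg of MW150, 2.2 mg/kg of Pifithrin-alpha or 3 mg/kg of SMN-C3, share the estimate of the spread and are set beside some values. Of 36144 gene symbols, the 15425 at 1 or more TPM (transcripts per 1000000) in at least 3 of the 15 libraries were tested.

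Spinal muscular atrophy is caused by too little SMN, a protein of all cells that loads Sm proteins onto the small nuclear RNAs of the spliceosome. Lumbar motor neurons are among the cells most affected, and in SMNdelta7 pups they lose synapses and some of them die soon after birth. The human SMN2 gene yields mostly an unstable SMN protein through skipping of an exon, so the mice keep a low level of SMN. The human transgenes were not analysed here. In dying SMA motor neurons p53, a transcription factor that responds to cellular stress, accumulates in the nucleus and switches on arrest and death genes. The question here is what else differs from WT, and which genes are lower.

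TPM values sum to 1000000 in every library, so a gene's value is its share of the RNA, and the depth behind it is not in the tables. In bulk RNA of captured tissue, fewer cells of a type and less RNA per cell cannot be told apart. WT 1 stood apart: mitochondrially encoded genes took 21.9% of its TPM, against 3.76% to 7.55% in the other 5 libraries of the comparison. Pearson's r between libraries, across genes, was 0.88 to 0.97 within WT and 0.95 to 0.96 within SMA. Over all tested genes the log2 change (SMA minus WT, on the log2(TPM+1) scale) had a median of 0.24, and of 0.04 after median-of-ratios scaling, which divides each library by its median ratio to a mean library. Without WT 1 those medians were 0.12 and 0. Values below are unscaled unless called scaled, and changes are to be read against these medians. Motor neuron markers were present. Chat, the enzyme that makes acetylcholine, was at 92.9 ± 24.2 TPM in WT against 81.2 ± 11.5 TPM in SMA (SD, n = 3 here and below). The motor neuron identity markers, all 22 of them detected, summed to 15668 to 21773 TPM per WT library and 12864 to 17264 TPM per SMA library.

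Nearly all genes that passed the test were higher in SMA. With limma and Benjamini-Hochberg adjustment over the 15425 genes, 55 were higher (0.357%) and 1 was lower (0.00648%) at an adjusted p under 0.05. With median-of-ratios scaling 44 were higher (0.285%) and 2 lower (0.0130%), and 44 genes were called both ways. At an unadjusted p under 0.05, 1634 genes were higher (10.6%) and 444 lower (2.88%) unscaled, against 1110 (7.20%) and 899 (5.83%) scaled. By sign alone 66.5% of the genes were higher and 33.3% lower, and 52.8% and 47.1% after scaling. All 3 SMA libraries lay above all 3 WT libraries for 14.5% of the genes and below them for 3.81%, or 8.60% and 8.13% with scaling. A fit of the 6 libraries alone called 7 genes and one with a weight per library called 100. Without SMA 1, which holds the highest value of many called genes, 21 genes were called (20 higher), and without WT 1 32 (31 higher). A list of 58 known p53 targets, 54 of them tested, accounts for 12 of the 56 calls. The list is not exhaustive, and a gene outside it may still be a p53 target. Outside it, 46 genes were called with or without scaling, 44 of them higher. Of those 46, 39 are annotated as protein coding.

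**Figure D1:**
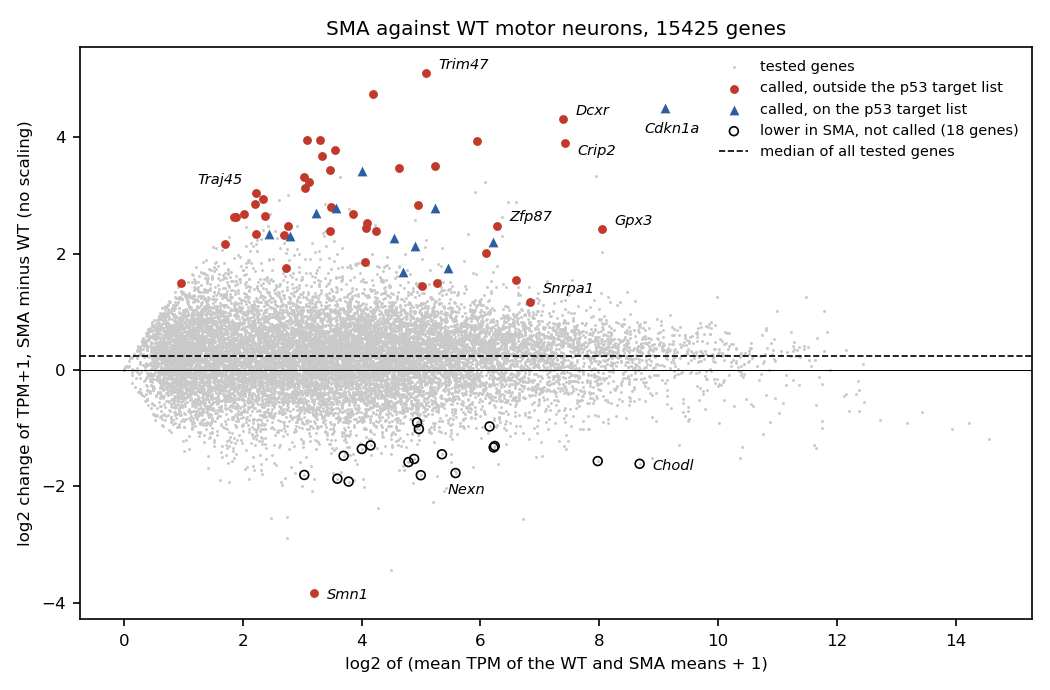
Each point is 1 of 15425 tested genes, with its level (log2 of the mean TPM of the WT and SMA means, plus 1) on the horizontal axis and its log2 change of TPM+1, SMA minus WT and unscaled, on the vertical axis. Red dots and blue triangles are genes called at an adjusted p under 0.05 and open circles are 18 lower genes that were not called; the calls above the dashed median of 0.24 number 55, while Smn1 is the only call below it.

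Smn1, the mouse gene deleted in SMA, was the 1 gene that fell in both fits, and it checks the labels (ENSMUSG00000021645.16; GRCm38 chromosome 13, 100124852 to 100137690, plus strand). Its level was 8.97, 16.5 and 23.3 TPM in WT 1 to WT 3 and 0.462, 0 and 0 TPM in SMA 1 to SMA 3, which is the order of all values below. The groups did not overlap, and the log2 change was -3.84 (SE 0.42, adjusted p 1.5e-04; scaled -3.93). None of its partners passed the test. Of the 16 genes of the SMN complex, Smn1 alone was called, 12 had a positive change (66.5% of all genes), and the list's median was 0.40 (0.16 scaled), against 0.24 (0.04 scaled) for all genes. Gemin4, a core subunit, was at 3.63, 11.5 and 23.9 TPM in the WT libraries versus 34.5, 25.8 and 28.8 TPM in the SMA libraries (adjusted p 0.29). Clns1a, which delivers Sm proteins to the complex, was at 78.4, 115 and 149 TPM in WT compared with 178, 166 and 199.7 TPM in SMA (adjusted p 0.3). Neither passed the test, although the SMA libraries of each lay above the WT libraries.

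Among the 22 Sm and LSm genes and their snRNP partners, 1 rose and none fell. Snrpa1, which encodes the A' protein of the snRNP that marks the branch point, went from 68.9, 63.4 and 72.8 TPM in WT to 191, 122 and 159 TPM in SMA (log2 1.17 with SE 0.23, adjusted p 0.03). Every SMA library was above every WT library, and the WT libraries lay close together. The call did not hold with scaling (log2 0.92, adjusted p 0.23) or in 5 of 6 fits without 1 of the libraries (adjusted p up to 0.23). In the annotation Snrpa1 overlaps Gm45213 on its own strand, which makes its value less certain. The mean levels of its transcripts differed in direction: the coding transcript went from 48.8 ± 2.39 to 154 ± 33.04 TPM, while a retained-intron transcript went from 10.8 ± 4.22 to 1.62 ± 0.825 TPM and one marked for nonsense-mediated decay from 6.06 ± 5.28 to 1.13 ± 1.75 TPM. These transcript values were not tested. Snrpb, which encodes the core proteins SmB and SmB', was at 64.1, 139 and 143 TPM in WT against 238, 226 and 209.9 TPM in SMA (log2 1.04, adjusted p 0.17). Snrnp70, of the snRNP that recognises the 5' splice site, was at 26.3, 44.6 and 44.01 TPM in the WT libraries versus 88.4, 86.7 and 85.8 TPM in the SMA libraries (log2 1.201, adjusted p 0.14). In both genes the groups did not overlap, without a call. U2af1, which recognises the 3' splice site, was at 54.4, 78.3 and 82.4 TPM in WT compared with 162, 186 and 145 TPM in SMA (log2 1.201, adjusted p 0.14; 0.063 scaled). The list's median was 0.42, or 0.17 scaled and 0.02 scaled without WT 1. Of the 9 minor spliceosome genes none was called. Zrsr1 was at 33.3, 23.2 and 29.3 TPM in WT against 15.4, 18.1 and 25.9 TPM in SMA, and the list's median was -0.11 (-0.35 scaled, -0.06 scaled without WT 1).

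Outside the p53 list, Dcxr and 1700007K13Rik had the smallest p-values. Dcxr, a dicarbonyl and L-xylulose reductase (ENSMUSG00000039450.11; chromosome 11, 120725399 to 120727281, minus strand), was at 17.1, 11.95 and 13.9 TPM in the WT libraries versus 474, 269 and 213 TPM in the SMA libraries. The lowest SMA library held over 10 times the highest WT library, and the log2 change was 4.32 (SE 0.36, adjusted p 1.6e-05). Coding transcripts held most of it, and the mean of a retained-intron transcript went from 0.309 ± 0.536 to 61.6 ± 32.9 TPM (not tested). Other enzymes rose with it. Acaa1b, a peroxisomal thiolase of fatty acid breakdown, was at 0, 0.712 and 0.938 TPM in WT compared with 30.7, 20.99 and 11.3 TPM in SMA (log2 3.78, adjusted p 2.8e-04). It overlaps Dlec1 on the other strand. Them5, a mitochondrial acyl-CoA thioesterase, had 0 TPM in every WT library and 15.5, 6.09 and 2.90 TPM in SMA (adjusted p 0.0041). Gpx3, a secreted glutathione peroxidase and the most abundant call outside the p53 list, was at 40.1, 106 and 102 TPM in WT against 701, 323 and 302 TPM in SMA (log2 2.41 with SE 0.44, adjusted p 0.018). SMA 1 was the highest library for each of these 4 genes, and the call of Gpx3 failed in 2 of the 6 fits without 1 library. Cox6b2, a subunit of cytochrome c oxidase best known from testis, was at 10.8, 45.1 and 32.01 TPM in the WT libraries versus 106, 126 and 84.4 TPM in the SMA libraries (log2 2.002, adjusted p 0.041). This call failed in 5 of those 6 fits. One of its coding transcripts, of 585 bases, went from 1.92 ± 1.66 to 35.2 ± 6.56 TPM. Tspo, a protein of the outer mitochondrial membrane that is often used as a marker of reactive glia, was at 2.56, 5.05 and 3.92 TPM in WT compared with 43.2, 28.5 and 11.9 TPM in SMA (log2 2.44, adjusted p 0.018). The call did not hold in 3 of the 6 fits without 1 library, and Mcat lies on its other strand.

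A further group of calls belongs to the cell surface, the cytoskeleton and cell junctions. Crip2, a LIM-domain protein (ENSMUSG00000006356.10; chromosome 12, 113140236 to 113145506, plus strand), was at 12.7, 25.4 and 20.9 TPM in WT against 504, 267 and 197 TPM in SMA. Its log2 change of 3.91 (SE 0.41, adjusted p 1.2e-04) rested on 1 coding transcript that held 98.1% of the gene's value in SMA. Plek2, a pleckstrin of the actin cortex, was at 1.38, 2.73 and 4.32 TPM in the WT libraries versus 78.5, 33.4 and 22.6 TPM in the SMA libraries (log2 3.47, adjusted p 4.7e-04). SMA 1 was the highest library for both, and neither call was lost when any 1 library was left out. Ly6d, a lipid-anchored surface protein, had 0 TPM in each WT library and 41.3, 54.6 and 7.31 TPM in SMA (adjusted p 5.6e-04). Gjb5, a connexin, likewise had 0 TPM in WT, and 33.3, 12.6 and 6.96 TPM in SMA (adjusted p 0.0036). Anxa8, an annexin, went from 0 in every WT library to 6.25, 5.50 and 4.01 TPM (adjusted p 0.018). Emp3, a relative of the myelin protein PMP22, was at 4.14, 10.6 and 3.20 TPM in WT compared with 103, 32.3 and 25.6 TPM in SMA (log2 2.84, adjusted p 0.04; 0.06 scaled). Icam1, an adhesion molecule for leukocytes, was at 0.383, 0.277 and 1.14 TPM in WT against 38.5, 8.97 and 11.2 TPM in SMA (log2 3.44, adjusted p 0.015). Both values of SMA 1 were more than 3 times those of SMA 2 and SMA 3. Espn, an actin-bundling protein, and Cpne2, a calcium-dependent membrane binder, rose by log2 2.47 and 2.39 (adjusted p 0.021 and 0.016). Cpne2 was at 5.03 ± 1.63 TPM in the WT libraries versus 30.7 ± 9.01 TPM in the SMA libraries. The calls of Anxa8, Emp3, Icam1, Espn and Cpne2 each failed in 3 to 5 of the 6 fits without 1 library.

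**Figure D2:**
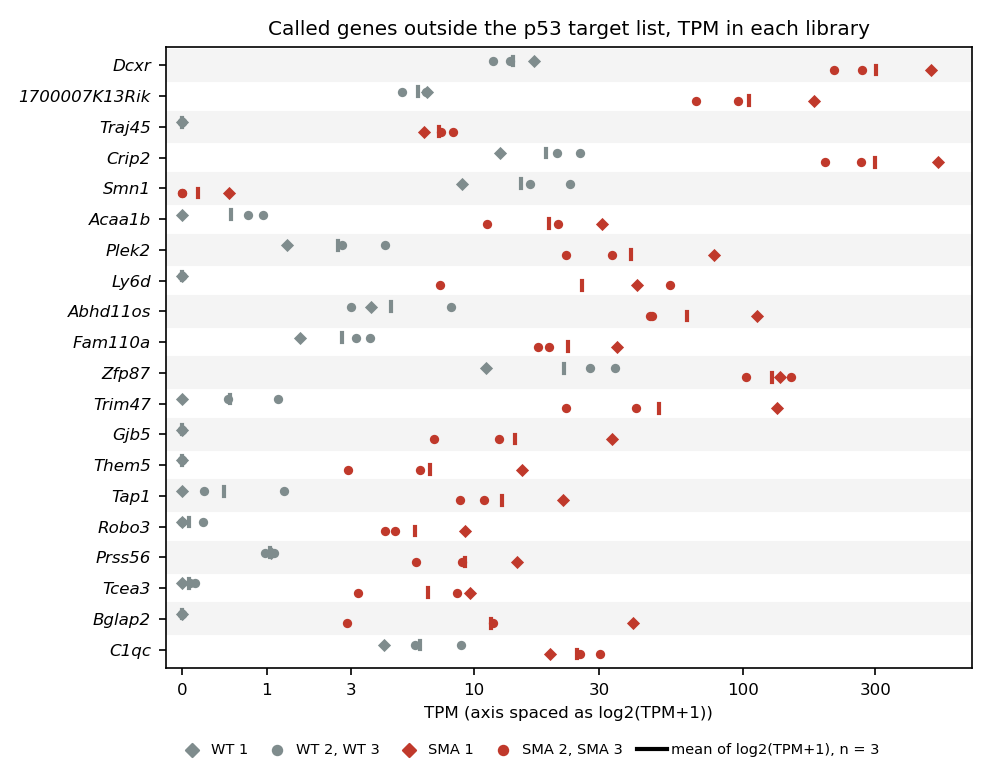
TPM of 20 called genes outside the p53 target list in each WT (grey) and SMA (red) library, on an axis spaced as log2(TPM+1); diamonds mark WT 1 and SMA 1, and vertical ticks are group means of log2(TPM+1). In 19 rows all 3 red points lie to the right of the grey points and in the row of Smn1 to the left, and the red diamond is the rightmost point in most rows.

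Other calls have nuclear or signalling roles. Zfp87, a zinc finger protein, was at 11.2, 27.6 and 34.2 TPM in WT compared with 137, 149 and 103 TPM in SMA (log2 2.48 with SE 0.33, adjusted p 0.0012). A transcript of 382 bases held 94.6% of its SMA value, and Gm26965 overlaps it on its own strand. Fam110a, a protein of the centrosome, was at 1.63, 3.69 and 3.18 TPM in WT against 34.8, 19.5 and 17.7 TPM in SMA (log2 2.68, adjusted p 0.0011). Both were called whichever library was left out. Trim47, a TRIM-family ubiquitin ligase that overlaps Trim65 on its strand, was at 0, 1.1998 and 0.462 TPM in the WT libraries versus 132, 40.8 and 22.5 TPM in the SMA libraries (log2 5.10, adjusted p 0.0031), and a transcript annotated as non-coding held 77.1% of its mean in SMA. Tcea3, a transcription elongation factor, was at 0, 0.108 and 0.0609 TPM in WT compared with 9.68, 8.58 and 3.26 TPM in SMA (log2 2.84, adjusted p 0.012). Ddias, a gene named for its induction by DNA damage, was at 0, 1.73 and 0.285 TPM in WT against 8.10, 5.78 and 6.32 TPM in SMA (log2 2.34, adjusted p 0.018; 0.063 scaled). Of the signalling genes, Robo3, a receptor that controls midline crossing of commissural axons, was at 0, 0 and 0.186 TPM in the WT libraries versus 9.22, 4.33 and 4.77 TPM in the SMA libraries (log2 2.68, adjusted p 0.0084). It was carried by retained-intron transcripts, the first at 2.57 ± 1.84 TPM and the second at 2.45 ± 0.728 TPM in SMA, and both listed at 0 in every WT library. Rgs12, a regulator of G protein signalling, rose by log2 2.53 (adjusted p 0.043; 0.063 scaled). A coding transcript of 3624 bases that was listed at 0 in all WT libraries held 52.5% of its value in SMA. Inka2, an inhibitor of PAK kinases, was at 1.65, 1.42 and 3.09 TPM in WT compared with 11.9, 7.08 and 8.68 TPM in SMA (log2 1.75, adjusted p 0.048). The calls of Ddias, Rgs12 and Inka2 each failed in 5 of the 6 fits without 1 library. Ttll5, which adds glutamate to tubulin, was called with scaling only (log2 1.58, adjusted p 0.041; 0.056 unscaled).

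A further 3 calls belong to genes with a WT mean of 10 TPM or more. Ift27, of the transport machinery of cilia, was at 32.8, 67.4 and 47.4 TPM in WT against 183, 112 and 131 TPM in SMA (log2 1.54, adjusted p 0.04). Tmem43, of the inner nuclear membrane, was at 18.3, 15.1 and 24.6 TPM in the WT libraries versus 71.9, 49.6 and 47.1 TPM in the SMA libraries (log2 1.49, adjusted p 0.034). Rbm43, an RNA-binding protein, was at 18.6, 14.3 and 14.8 TPM in WT compared with 70.1, 33.6 and 37.6 TPM in SMA (log2 1.44, adjusted p 0.042). These 3 calls each failed in 5 of the 6 fits without 1 library, and with scaling only that of Ift27 passed (adjusted p 0.0499). Of the 44 genes outside the p53 list that were called higher, 9 had a WT mean of 10 TPM or more, 14 were under 1 TPM in every WT library and 8 were listed at 0 there. SMA 1 held the highest of the 6 values for 36 of the 44. Of the 44 unscaled calls, Smn1 included, 15 held whichever library was left out and 23 failed in 3 or more of those 6 fits. Of the 10 genes with the smallest p among those outside the p53 list, higher in SMA and at 50 TPM or more in WT, Gpx3 and Snrpa1 were called and 8 were not. The 8 included Bloc1s2, of the complex that shapes lysosome-related organelles (183 ± 34.5 TPM in WT, 333 ± 65.6 TPM in SMA, adjusted p 0.13). Serpine2, a protease inhibitor secreted by glia and neurons, was at 229 ± 41.7 TPM in WT against 541 ± 214 TPM in SMA (adjusted p 0.18).

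The remaining calls are of mixed kinds, and several are pseudogenes or overlap other genes. 1700007K13Rik (ENSMUSG00000026831.16; chromosome 2, 28462001 to 28466332, minus strand) was at 6.47, 6.46 and 5.11 TPM in the WT libraries versus 180.4, 95.8 and 67.4 TPM in the SMA libraries. The WT libraries lay close together, SMA 1 was the highest, and the log2 change was 3.93 (SE 0.34, adjusted p 1.6e-05; scaled 3.69). Abhd11os, annotated as a pseudogene on the strand opposite Abhd11, was at 3.71, 8.16 and 3.02 TPM in WT compared with 113, 46.8 and 46.2 TPM in SMA (log2 3.51, adjusted p 7.7e-04). Whether the counting used strand is not given in the sources used here, so reads of Abhd11 cannot be told apart from it. Prss56, a trypsin-like protease, was at 1.08, 1.12 and 0.981 TPM in WT against 14.8, 9.02 and 5.84 TPM in SMA (log2 2.32, adjusted p 0.0087). Bglap2, which encodes osteocalcin in bone, had 0 TPM in each WT library and 40.04, 11.9 and 2.88 TPM in SMA (adjusted p 0.012), and near-identical copies of it exist. A pair of T cell receptor segments, Traj45 and Trav6-7-dv9, were also listed at 0 in WT. Traj45 is 63 bases long and was at 6.29, 8.25 and 7.42 TPM in SMA (adjusted p 2.3e-05). Trav6-7-dv9 was at 7.79, 3.82 and 4.56 TPM there (adjusted p 0.014). Traj45 was at 0 in the 9 treated libraries too, so only the SMA libraries gave this gene any spread. Groups at 0 add nothing to the shared estimate of the spread, so the p of Traj45 may be too small. Its call held whichever library was left out, but those fits have the same limit. The calls further included 4 other pseudogenes, Gm18251, Gm14494, Gm34583 and Gm10046. Gm18251 went from 0, 0 and 3.26 TPM in WT to 16.2, 11.5 and 15.3 TPM in SMA, and Gm14494 from 0 in every WT library to 12.4, 11.5 and 20.8 TPM. The last calls were R3hdml (log2 2.64, adjusted p 0.026), Gm49356, which shares its strand and place with Ndufb9 and Rnf139 (log2 3.13, adjusted p 0.039), Rnase4, a ribonuclease that overlaps Ang (log2 2.39, adjusted p 0.048), and 1700028P14Rik, which reached no more than 2.45 TPM. Except for Gm34583, the calls named in the last 3 sentences failed in 4 to 6 of the 6 fits without 1 library.

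Promoters bear on the calls because p53 binds DNA at pairs of a decamer, the p53 half-site. RefSeq promoter sequences (GRCm38.p6, 250 bases before to 50 bases after a gene's start) were found by symbol for 44 of the 55 genes called higher. The p53 consensus half-site, which reads as itself on the other strand, occurred in 10 of them (22.7%), in 8.55% of the 11114 tested genes with a promoter and in 9.55% of all RefSeq promoters. Of these 10, 7 are on the p53 list, whose members were chosen by known function and with earlier results of these data known. Of the 34 called genes outside that list, 3 held a half-site (8.82%), near the background share. They were 1700007K13Rik, Emp3 and Inka2. A match is a string of letters and not a binding site. Inka2 held 1, and Emp3 held 1 in each of its 2 promoters. In a single promoter 1700007K13Rik held 2 half-sites, as did Cdkn1a, which encodes p21, a brake on the cell cycle and the best known p53 target. Their promoters are shown 5' to 3' with half-sites in capitals, 1700007K13Rik from chr2:28466275-28466574 (minus strand) and Cdkn1a from chr17:29090729-29091028 (plus strand).
1700007K13Rik: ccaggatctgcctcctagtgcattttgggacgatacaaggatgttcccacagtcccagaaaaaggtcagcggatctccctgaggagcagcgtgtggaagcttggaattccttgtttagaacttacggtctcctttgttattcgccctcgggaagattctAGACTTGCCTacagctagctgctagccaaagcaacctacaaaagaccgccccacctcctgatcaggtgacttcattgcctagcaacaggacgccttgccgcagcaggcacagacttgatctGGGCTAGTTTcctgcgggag
Cdkn1a: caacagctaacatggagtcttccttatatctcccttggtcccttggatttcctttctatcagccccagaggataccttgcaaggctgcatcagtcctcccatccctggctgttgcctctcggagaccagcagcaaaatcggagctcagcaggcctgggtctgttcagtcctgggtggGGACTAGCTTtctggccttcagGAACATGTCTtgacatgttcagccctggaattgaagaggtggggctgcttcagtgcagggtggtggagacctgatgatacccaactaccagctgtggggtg
The half-sites of 1700007K13Rik began at bases 160 and 281 of the 300 shown and those of Cdkn1a at bases 178 and 200. Those of 1700007K13Rik thus lay much further apart, and whether the marked half-sites of either gene act as a pair was not tested. The search allowed no mismatch, so near-matches are not in capitals. In Cdkn1a the bases right after the half-site at base 200, tgacatgttc, miss the consensus only at their first base. The spacing of marked half-sites therefore need not be that of a p53 site.

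The p53 targets had the highest median of the 44 lists with at least 5 tested genes. The list was written from general knowledge of p53 targets but with earlier results of these data known, so its rank is not independent support. Of the 54 tested, 12 were called higher and none lower (0.357% and 0.00648% of all genes), and the median log2 change was 1.22 (1.03 scaled). The 12 were Cdkn1a, Mdm2, Ccng1, Pmaip1, Fas, Perp, Aen, Gtse1, Polk, Plk2, Ddit4l and Ephx1. With scaling 9 were called, without Ccng1 (adjusted p 0.073), Polk (0.063) and Ddit4l (0.063). The calls of Mdm2, Polk, Ddit4l and Ephx1 failed in 4 or 5 of the 6 fits without 1 library, and that of Pmaip1 in 3. Cdkn1a was at 35.9, 47.5 and 44.7 TPM in the WT libraries versus 1430, 1140 and 590.4 TPM in the SMA libraries, the largest change on the list (log2 4.51). Those tied to death included Perp, a membrane protein of p53-driven apoptosis, at 6.22, 5.79 and 11.02 TPM in WT compared with 118, 38.6 and 40.1 TPM in SMA (log2 2.79, adjusted p 0.0026). Aen, a nuclease of apoptosis, was at 11.5, 33.04 and 36.8 TPM in WT against 166, 85.7 and 107 TPM in SMA (log2 2.20, adjusted p 0.014). Plk2, a stress-induced polo-like kinase, was at 5.86, 7.13 and 6.91 TPM in the WT libraries versus 57.97, 28.2 and 27.5 TPM in the SMA libraries (log2 2.27, adjusted p 0.0031). SMA 1 was again the highest library for all 3. A list of other cell death effectors gave 0 calls of 38 genes, with 5 higher at an unadjusted p under 0.05 against 10.6% of all genes. It was meant to lie outside the p53 list but shares Tnfrsf10b with it. Its median was 0.47 (0.26 scaled, 0.11 scaled without WT 1). Tnfrsf1a, a receptor for TNF, was at 1.29, 3.70 and 2.89 TPM in WT compared with 17.4, 16.7 and 7.57 TPM in SMA (adjusted p 0.1). Among 40 genes of DNA damage response and repair none was called, and their median of 0.21 was close to that of all genes. Of 45 cell cycle genes none was called (median 0.32, or 0.12 scaled).

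Antigen presentation and complement each held 1 call. Tap1, a subunit of the transporter that feeds peptides to MHC class I, was at 0, 0.197 and 1.31 TPM in WT against 21.9, 10.98 and 8.83 TPM in SMA (log2 3.31 with SE 0.50, adjusted p 0.0041). Psmb9 lies on its other strand. Tap2, its partner, was at 0.171, 0.0383 and 2.56 TPM in the WT libraries versus 7.18, 5 and 5.17 TPM in the SMA libraries without a call (log2 2.04, adjusted p 0.16). Ifitm2, an interferon-induced membrane protein, was at 8.17, 31.9 and 32.4 TPM in WT compared with 72.5, 104 and 63.9 TPM in SMA (log2 1.88, adjusted p 0.1; 0.063 scaled). In all 3 genes every SMA library lay above every WT library. Of the 35 tested genes of MHC class I and the interferon response, 33 had a positive change (66.5% of all genes) and 9 were higher at an unadjusted p under 0.05 (10.6% of all genes), with none lower. Their median was 0.70 (0.52 scaled, 0.38 scaled without WT 1). C1qc, a chain of the complement protein C1q, was at 4.28, 8.91 and 5.80 TPM in WT against 19.6, 30.2 and 25.4 TPM in SMA (log2 1.86, adjusted p 0.014; 0.0485 scaled). This call failed in 3 of the 6 fits without 1 library (adjusted p up to 0.083). It was the 1 call among 20 complement genes, whose median was 0.32 (0.14 scaled), and among 18 microglia markers. Its sister chains C1qa and C1qb had log2 changes of 1.92 and 1.78 (adjusted p 0.13 and 0.18). Of 37 cytokines and receptors none was called (median 0.22, or 0.09 scaled). Ifnar2, a chain of the interferon receptor, was at 26.1, 22.2 and 14.4 TPM in WT against 32.3, 34.1 and 25.9 TPM in SMA.

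RNA of other cells was present in every library, and the summed microglia markers were higher in each SMA library than in any WT library. The 20 microglia markers summed to 91.9 to 116 TPM per WT library and 221 to 260.5 TPM per SMA library, with 1 of them under 1 TPM throughout. Their median change was 0.87 (0.68 scaled, 0.71 scaled without WT 1). The 18 astrocyte markers summed to 1709 to 3262 TPM in WT and 2743 to 4258 TPM in SMA, so the sums overlapped. All 18 had a positive change unscaled (66.5% of all genes) and 14 with scaling (52.8% of all genes). Their median was 0.78, or 0.53 scaled. Scaled without WT 1, 15 were positive and the median was 0.33. Gfap, the astrocyte filament, was at 18.6, 54.8 and 33.7 TPM in the WT libraries versus 81, 138 and 133 TPM in the SMA libraries (adjusted p 0.21). Oligodendrocyte markers summed to 836 to 2392 TPM in WT and 1017 to 4901 TPM in SMA, with a median change of 0.90 (0.66 scaled, and 0.31 to 1.11 scaled over fits that left out 1 library). The vascular and meningeal markers had a median of 0.12, and the highest WT sum (1332.2 TPM) and the lowest SMA sum (1332.8 TPM) were level. Within that list Ly6a, a surface protein of endothelium, was at 11.2, 18.96 and 13.3 TPM in WT compared with 357, 66.4 and 56.5 TPM in SMA (log2 2.88, adjusted p 0.063). Pmp22, listed among Schwann cell markers, was at 42.1, 45.3 and 39.5 TPM in WT against 116, 209 and 61.5 TPM in SMA (adjusted p 0.15). Only 3 of the 13 genes of that list were tested (median 1.37). The 7 tested interneuron markers and 5 tested red blood cell markers had medians of 0.61 and 0.54 without calls. The part of RNA from other cells in the calls on Tap1, C1qc, Tspo, Icam1 and Gpx3 was not tested.

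Genes that neurons raise after injury had mostly positive changes without a call. Of 41 injury and regeneration genes, 34 had a positive change (66.5% of all genes) and 13 were higher at an unadjusted p under 0.05 (10.6% of all genes), with none lower. Their median was 0.60 (0.39 scaled, 0.29 scaled without WT 1). Tubb6, a tubulin, was at 7.17, 10.3 and 15.5 TPM in the WT libraries versus 86.9, 27.6 and 47.4 TPM in the SMA libraries (log2 2.11 with SE 0.47, adjusted p 0.074; 0.063 scaled). Fos, an immediate-early transcription factor, was at 8.11, 12.7 and 27.7 TPM in WT compared with 49.8, 37.3 and 40.3 TPM in SMA (log2 1.497, adjusted p 0.11). In both genes the groups did not overlap. In the integrated stress and unfolded protein response 0 of 49 genes were called, with a median of 0.36 (0.14 scaled, -0.05 scaled without WT 1). Ddit3, the transcription factor CHOP, was at 41.01 ± 16.3 TPM in WT against 74.4 ± 13.9 TPM in SMA (adjusted p 0.35). Sesn2, which is also on the p53 list, was at 2.82, 10.5 and 10.3 TPM in the WT libraries versus 27.9, 22.01 and 18.3 TPM in the SMA libraries (adjusted p 0.23). Heat shock proteins and the proteasome gave 0 calls of 51 and a scaled median of -0.03. Lysosome and autophagy genes gave 0 calls of 61, with 15 higher at an unadjusted p under 0.05 and a median of 0.60 (0.38 scaled). Without WT 1 the scaled median of that list was 0.05. Ctsz, a lysosomal protease, was at 1.01, 15.7 and 14.6 TPM in WT compared with 45.8, 46.8 and 48.9 TPM in SMA, with WT 1 far below the others (log2 2.58, adjusted p 0.066). Of 37 antioxidant genes 2 were called, Gpx3 and Ephx1, and the median of 0.46 became -0.01 scaled without WT 1. Gss, which makes glutathione, was at 18.4, 21.2 and 41.1 TPM in WT against 73.6, 56.4 and 52.6 TPM in SMA (adjusted p 0.22).

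No listed gene of energy metabolism passed the test. All 13 mitochondrially encoded genes had negative changes (median -0.99, scaled -1.25), and 10 were lower at an unadjusted p under 0.05 (2.88% of all genes). Without WT 1 the scaled median was -0.65, still with 13 of 13 negative. The gene mt-Nd2, for a subunit of the first respiratory complex, was at 8914, 2627 and 2670 TPM in the WT libraries versus 973, 2512 and 1576 TPM in the SMA libraries, so WT 1 held over 3 times the level of the other WT libraries. The 77 nuclear-encoded respiratory genes had a median of 0.23, with 27 negative, and of -0.02 scaled, with 42 negative. Scaled without WT 1 their median was -0.23 and 74 were negative, against 7709 of all 15425 genes. Cycs, which encodes cytochrome c, was at 799.9, 277 and 319.9 TPM in WT compared with 244, 229 and 227 TPM in SMA (adjusted p 0.38). The 80 ribosomal protein genes had a median of 0.31 (0.06 scaled), the 25 glycolysis genes 0.45 (0.20 scaled, -0.06 without WT 1) and the 34 genes of sterol and fatty acid synthesis 0.33 (0.10 scaled). Genes of the Golgi and secretion, 48 tested, had a median of 0.31 (0.06 scaled). None of these lists held a call.

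Many genes were lower in SMA by the order of the libraries, and almost none by the test. Among genes at 10 TPM or more in WT, 420 had every SMA library below every WT library both unscaled and scaled. Over all tested genes, at any level, 3.81% did so unscaled and 8.13% scaled. The number of tested genes at 10 TPM or more in WT is not given here, so the 420 have no matching share. Of the 420, 1 was called unscaled and 2 were called scaled. The second was Yjefn3 (ENSMUSG00000048967.16; chromosome 8, 69887788 to 69902712, minus strand), at 15.7, 27.4 and 23 TPM in WT against 5.80, 7.04 and 11.3 TPM in SMA. It fell by 1.59 on the scaled log2 scale (adjusted p 0.022), and unscaled its log2 change was -1.36 (adjusted p 0.15). Without WT 1 the scaled change was -1.70, and Tssk6 lies on its other strand. The remaining genes named here were not called.

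The lower genes included Chodl and Mmp9, which are on the list of motor neuron subtype genes. Chodl, chondrolectin, which marks fast motor neurons, was at 539, 480.0 and 769 TPM in the WT libraries versus 119, 143 and 401 TPM in the SMA libraries (log2 -1.61 with SE 0.41, adjusted p 0.14). Mmp9, a secreted protease of the fastest motor units, was at 13.96, 16.6 and 20.8 TPM in WT compared with 2.24, 2.12 and 10.7 TPM in SMA (log2 -1.87, adjusted p 0.15). SMA 3 was the highest SMA library for both, and without it both were called (adjusted p 0.021 and 0.027). Calca, the neuropeptide CGRP, was at 2296, 2140 and 2842 TPM in WT against 1045, 1223 and 1714 TPM in SMA (log2 -0.89, adjusted p 0.3). Spp1, osteopontin, overlapped between the groups, at 106, 82.7 and 161 TPM in the WT libraries versus 21.4, 43.4 and 155 TPM in the SMA libraries. Of the 21 tested genes marking fast, slow and gamma motor neurons, 14 had a negative change (33.3% of all genes), none was called, and the median was -0.17 (-0.38 scaled, -0.25 scaled without WT 1). The 22 motor neuron identity genes had a median of 0.18 (-0.06 scaled, -0.24 scaled without WT 1). Slc5a7, the choline transporter, was at 304, 136 and 153 TPM in WT compared with 101, 110.0 and 117 TPM in SMA (adjusted p 0.35).

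Others of the lower genes with the smallest p share no single function. Nexn, nexilin, an actin-binding protein, was at 126, 49.2 and 47.3 TPM in WT against 12.8, 26.5 and 19.4 TPM in SMA (log2 -1.77 with SE 0.39, adjusted p 0.065). Layn, the hyaluronan receptor layilin, was at 92.3, 113 and 111 TPM in the WT libraries versus 44.7, 27.1 and 60.1 TPM in the SMA libraries (log2 -1.31, adjusted p 0.083). Layn had close values in the WT libraries and was called with quantile normalization, with a weight per library and without SMA 3. Unc80, a subunit of the sodium leak channel that sets the resting potential, was at 87.3, 28.8 and 31.5 TPM in WT compared with 8.04, 20.9 and 9.01 TPM in SMA (log2 -1.81, adjusted p 0.12; 0.058 scaled). Grm7, a presynaptic glutamate receptor, was at 25.7, 11.9 and 17.2 TPM in WT against 6.504, 6.30 and 4.32 TPM in SMA (log2 -1.48, adjusted p 0.16; 0.063 scaled). Ptprd, a phosphatase that organises synapses, was at 106, 84.3 and 87.01 TPM in the WT libraries versus 34.6, 66.7 and 43 TPM in the SMA libraries (log2 -0.97, adjusted p 0.16). Atp11b, a phospholipid flippase, was at 71.7, 49.04 and 55.96 TPM in WT compared with 19.8, 24.3 and 18.4 TPM in SMA (log2 -1.45, adjusted p 0.18). Nbea, neurobeachin, which sorts receptors to synapses, was at 40, 32.5 and 44.1 TPM in WT against 18.9, 22.8 and 19.1 TPM in SMA (log2 -0.90, adjusted p 0.19). For Nbea WT 1 lay between the other WT libraries.

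For others WT 1 was far above the other WT libraries. Ube3a, a ubiquitin ligase, was at 782, 211 and 182 TPM in the WT libraries versus 85.6, 155 and 85.9 TPM in the SMA libraries, a scaled log2 change of -1.82 that became -1.05 without WT 1. Slc10a7, a transporter of the solute carrier family, was at 45.4, 12.6 and 7.65 TPM in WT compared with 4.34, 3.49 and 3.20 TPM in SMA (-2.13 scaled, -1.33 without WT 1). The most abundant transcript was only 579 bases long for Ube3a and 121 bases for Slc10a7, and Snhg14 lies on the other strand of Ube3a. Both values are less certain for it. Ppp3cb, a catalytic subunit of calcineurin, was at 191, 66.6 and 70.3 TPM in WT against 32.8, 42.3 and 38.6 TPM in SMA (-1.58 scaled, -0.99 without WT 1). Frzb, a secreted Wnt antagonist, Sesn3, a sestrin, Myef2, a repressor of transcription, Guf1, a factor of mitochondrial translation, and BC005561 make up the 19 reported here, with unscaled log2 changes of -1.02 to -1.81. WT 1 was the highest of the 6 libraries for 13 of the 19 genes. All 19 kept a negative scaled change without WT 1.

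**Figure D3:**
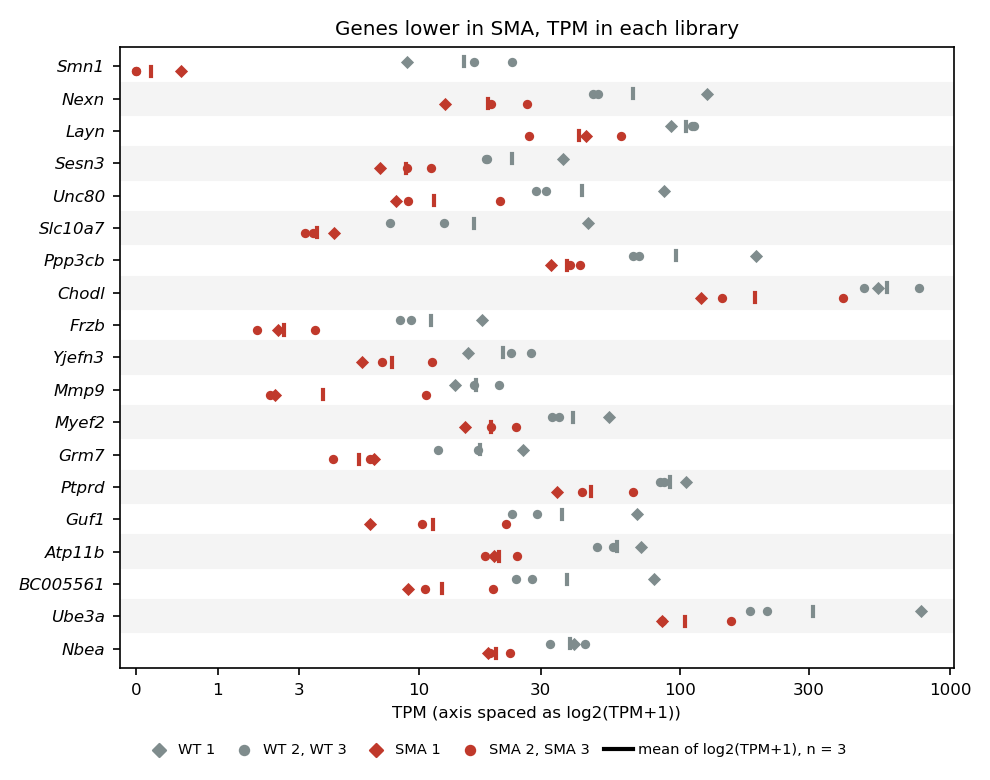
TPM of 19 lower genes (at least 10 TPM in WT, all SMA libraries below all WT libraries, smallest p first) in each WT (grey) and SMA (red) library, on an axis spaced as log2(TPM+1), with diamonds for WT 1 and SMA 1 and ticks for group means of log2(TPM+1). In every row the red points lie to the left of the grey ones, and the grey diamond is the rightmost point in 13 rows.

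The deviation of WT 1 varied with transcript length. Genes were binned by the length of their most abundant transcript, a description added after the values had been seen. In the 1052 genes over 6000 bases, WT 1 lay a median of 0.61 above the mean of the 15 libraries on the scaled log2 scale. In the same genes SMA 1 and SMA 3 lay at -0.30 and -0.23, and WT 2, WT 3 and SMA 2 at -0.05, -0.02 and 0.01. In genes of 1000 to 2000 bases WT 1 lay at -0.36, SMA 1 at 0.10 and SMA 3 at 0.03. Leaving out WT 1 thus does not remove the lower level of long transcripts in SMA 1 and SMA 3. The median scaled change of SMA against WT was -0.33 in genes over 6000 bases and 0.12 in genes of 1000 to 2000 bases. Without WT 1 those medians were -0.12 and 0. At an unadjusted p under 0.05 with scaling, 154 of the 1052 genes over 6000 bases were lower and 17 higher (5.83% and 7.20% of all genes). Without WT 1, 36 were lower and 10 higher. In that fit 1027 of all 15425 genes were at such a p in either direction. The part of transcript length in the lower genes was not tested. Of the 420 lower genes above, 67 had a transcript over 6000 bases.

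**Figure D4:**
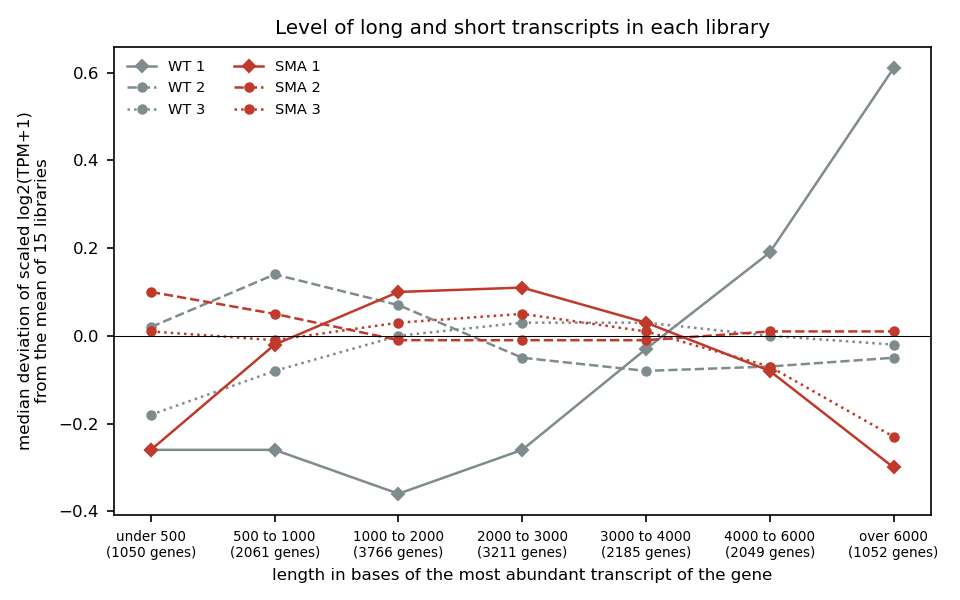
Median deviation of scaled log2(TPM+1) from the mean of 15 libraries (vertical axis) for genes in 7 bins of transcript length in bases (horizontal axis, number of genes in brackets), with 1 line per WT (grey) and SMA (red) library. WT 1 climbs from -0.36 at 1000 to 2000 bases to 0.61 over 6000 bases, while the other 5 libraries stay between -0.30 and 0.14. Over 6000 bases SMA 1 and SMA 3 are the lowest, at -0.30 and -0.23.

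Lists of synaptic and receptor genes had low medians, and each is given with and without WT 1. Of 57 genes of cell adhesion and synapse organisation, 51 had a negative scaled change (47.1% of all genes) and 20 were lower at an unadjusted p under 0.05 (5.83% of all genes), with none called. Unscaled, 41 were negative (33.3% of all genes) and 7 were lower at an unadjusted p under 0.05 (2.88%). Their scaled median was -0.48 (-0.33 without WT 1, 52 of 57 negative). The median length of their transcripts was 4012 bases, against 2219 over all tested genes. Cdh6, a cadherin, was at 63.6, 30.5 and 59.2 TPM in WT compared with 14.4, 26.8 and 36.1 TPM in SMA (scaled log2 -1.23, adjusted p 0.18). Slitrk1, a synaptic adhesion protein, was at 31, 16.4 and 19.4 TPM in WT against 9.17, 11.5 and 12.8 TPM in SMA (scaled log2 -1.13, adjusted p 0.18). Receptors for GABA and glycine, the inhibitory transmitters, gave 19 of 23 negative and 9 lower at an unadjusted p under 0.05 with scaling, and 17 and 5 unscaled (scaled median -0.48, or -0.37 without WT 1). Slc12a5, the chloride exporter that makes these transmitters inhibitory, was at 265, 138 and 108 TPM in the WT libraries versus 50.9, 98.3 and 79.99 TPM in the SMA libraries (scaled log2 -1.34, adjusted p 0.2). Glra2, a glycine receptor subunit, was at 85.8, 44.8 and 68.2 TPM in WT compared with 32.4, 27.98 and 48.9 TPM in SMA (scaled log2 -1.08, adjusted p 0.24). Glutamate receptors gave 23 of 34 negative with scaling and 18 unscaled (scaled median -0.34, or -0.27 without WT 1). Gria2, the AMPA receptor subunit that bars calcium, was at 184, 75.1 and 102 TPM in WT against 55.8, 65.4 and 56.9 TPM in SMA (scaled log2 -1.16, adjusted p 0.14).

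No gene of the ion channel lists was called, with or without scaling. Of 33 sodium, calcium and HCN channel genes 19 had a negative change unscaled (33.3% of all genes) and 24 with scaling (47.1% of all genes; median -0.48, or -0.33 without WT 1). Fgf13, a channel regulator, was at 344, 248 and 309.6 TPM in the WT libraries versus 128, 133 and 184 TPM in the SMA libraries (log2 -1.02, adjusted p 0.21). Scn3b, an auxiliary sodium channel subunit, went the other way, from 14.7, 20.1 and 28.5 TPM in WT to 63.6, 42.9 and 32.9 TPM in SMA (log2 1.10, adjusted p 0.21). In neither did the groups overlap. The 38 potassium channel genes had a scaled median of -0.08 (0.02 without WT 1). Kcnn2, which shapes the pause after an action potential, was at 65.7, 27.3 and 33.1 TPM in WT compared with 10.8, 21.3 and 23.4 TPM in SMA (log2 -1.11, adjusted p 0.25). Kcna6, of the delayed rectifier type, was at 6.18, 12.6 and 12.8 TPM in WT against 31.8, 25.2 and 16.8 TPM in SMA (log2 1.16, adjusted p 0.26). Among 56 RNA-binding proteins and splicing regulators none was called, with a scaled median of -0.41 that was -0.13 without WT 1. Elavl2, a neuronal RNA-binding protein, was at 261, 102 and 133 TPM in the WT libraries versus 85.6, 86.6 and 77.7 TPM in the SMA libraries (adjusted p 0.26).

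**Figure D5:**
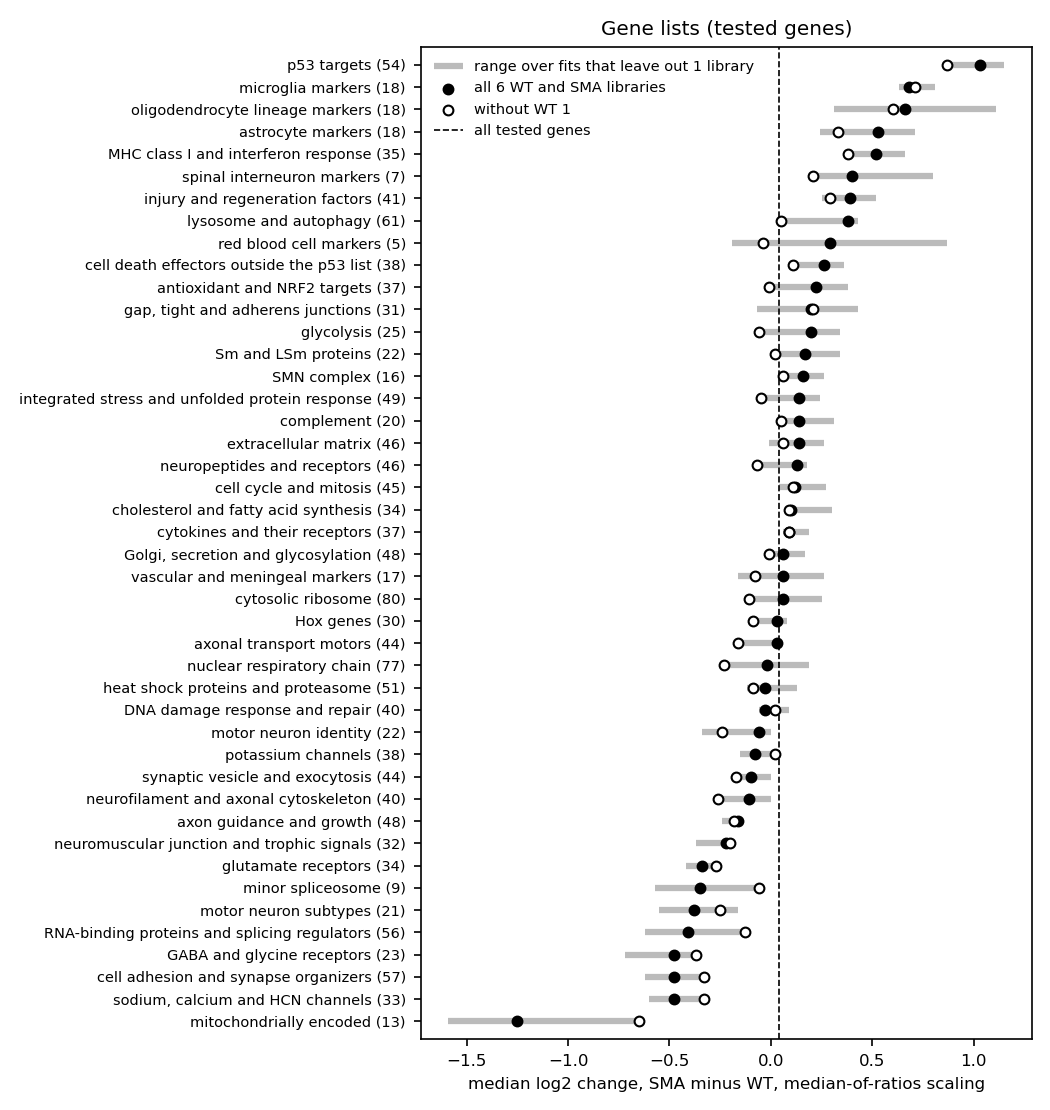
Median log2 change (SMA minus WT, median-of-ratios scaling, horizontal axis) of the tested genes of each list with at least 5 of them, with filled points for all libraries, open points without WT 1, and grey bars for the range over fits that leave out 1 library. The p53 targets (1.03) and microglia markers (0.68) sit to the right of the dashed median of all genes (0.04), and the mitochondrially encoded genes (-1.25) to its left; the open point of lysosome and autophagy genes (0.05) lies on it.

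Synaptic and axonal genes held 1 call, Robo3. The 44 genes of the synaptic vesicle had a scaled median of -0.10, and of -0.17 without WT 1, where 32 were negative. Within them Vamp2, a fusion protein of the vesicle, was at 85.3, 140.0 and 225 TPM in WT compared with 333, 266 and 265 TPM in SMA (log2 1.04, adjusted p 0.25), and Rims2, of the release site, at 109, 46.3 and 56.3 TPM in WT against 23.6, 44.9 and 31.7 TPM in SMA (log2 -1.004, adjusted p 0.26). The 44 axonal transport genes had a scaled median of 0.03 (-0.16 without WT 1, 33 negative), and the 40 genes of neurofilaments and the axonal cytoskeleton of -0.11 (-0.26 without WT 1, 36 negative). Over all genes, 7709 were negative and 7684 positive in that fit. Bicd1, an adaptor of dynein, and Map2, a protein of dendritic microtubules, had log2 changes of -0.87 and -0.97 (adjusted p 0.3 and 0.25). The 48 axon guidance genes, with Robo3 as the 1 call, had a scaled median of -0.16 (-0.18 without WT 1). Slit2, a guidance cue, was at 176, 72.1 and 88.7 TPM in the WT libraries versus 41.1, 53.1 and 32.6 TPM in the SMA libraries (log2 -1.31, adjusted p 0.23, or 0.083 scaled). It was below WT in each SMA library without a call, and a link to the higher Robo3 was not tested. The 32 neuromuscular junction and trophic genes had a scaled median of -0.22, the 46 genes of the extracellular matrix 0.14 and the 46 neuropeptides and receptors 0.13, none with a call. Reln, the matrix protein reelin, was at 37.6, 36.6 and 27.2 TPM in WT compared with 11.3, 17.4 and 14.9 TPM in SMA (log2 -1.17, adjusted p 0.28). The 31 junction genes had a scaled median of 0.20, with Gjb5 as the 1 call, and the 30 Hox genes of 0.03. Hoxb7 was at 0, 1.09 and 1.69 TPM in WT against 6.54, 4.94 and 5.47 TPM in SMA (adjusted p 0.23).

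The treated SMA groups give the levels of the same genes under 3 agents, set side by side here with no test because they share the SMA and WT libraries. Dcxr was at 237, 232 and 204 TPM with MW150, 191, 189.6 and 66.2 TPM with Pifithrin-alpha and 109, 110.5 and 98.3 TPM with SMN-C3. All 9 values lay above the highest WT library. For 1700007K13Rik the levels were 86.7, 77.8 and 63.4 TPM with MW150, 64.8, 65.7 and 48.3 TPM with Pifithrin-alpha and 14.7, 27.7 and 15.2 TPM with SMN-C3. Crip2 was at 198, 216 and 168 TPM with MW150, at 178, 156 and 56.8 TPM with Pifithrin-alpha and at 88.1, 81.9 and 129 TPM with SMN-C3. Both genes, too, lay above their highest WT library in all 9. Ly6d had 23.1, 16.6 and 30.9 TPM with MW150 and 11.5, 14 and 3.41 TPM with Pifithrin-alpha, and was listed at 0 in the 3 SMN-C3 libraries as in WT. Traj45 was listed at 0 in all 9 treated libraries. Snrpa1 measured 158, 165 and 146 TPM with MW150, 159, 143 and 188 TPM with Pifithrin-alpha and 123, 147 and 178 TPM with SMN-C3, all above its highest WT library. Of the lower genes, Chodl measured 376, 221 and 186 TPM with MW150, 333, 366 and 774 TPM with Pifithrin-alpha and 467, 541 and 605 TPM with SMN-C3. Layn stood at 62.7, 47.5 and 43.1 TPM with MW150, 63.3, 50.9 and 86.6 TPM with Pifithrin-alpha and 69.2, 103 and 94.9 TPM with SMN-C3, below its lowest WT library except in SMA+SMN-C3 2 and SMA+SMN-C3 3. In SMA+Pifithrin-alpha 3, where mitochondrially encoded genes took 20.4% of TPM, Chodl was the highest and Crip2 the lowest of the 9 treated libraries.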

How the data were processed

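The deposited tables give TPM per gene and per transcript, which the authors made with kallisto 0.44.0, per the submitters' processing notes. Those notes also name DESeq2, without saying for what, and the builds GRCm38.p6 and mm10; the annotation release is not given in the sources used here. TPM keeps no read depth, so the precision of single values is unknown and the 3 libraries per group set the error. Genes at 1 TPM or more in at least 3 of 15 libraries were kept, and log2(TPM+1) was fitted with limma 3.58.1 (R 4.3.3, trend on the mean level, 1 mean per group, 15 libraries). P-values were two-sided and adjusted by Benjamini-Hochberg over 15425 genes, and calls are at an adjusted p under 0.05. The fit was also run with median-of-ratios scaling and was tested on simulated data. Fold changes on this scale understate the change of low genes. Libraries of a group are biological replicates per the labels. Gene positions and transcript types came from GENCODE M21 (GRCm38), which held 98.6% of the transcripts, and promoters from RefSeq. Named were Smn1, every gene called outside the p53 list, the 20 lower genes with the smallest p, the 10 higher genes at 50 TPM or more with the smallest p, and of each of 45 gene lists the called members and the 3 with the smallest p at 5 TPM or more. Chat was named outside this rule, as a marker, and 2 genes that the rule names, 1 of them among the 20 lower genes, are not reported here. The members and lists were chosen with earlier results of these data known.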

Additional observations from a re-analysis of the deposited data

How the results depend on the processing

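The count of called genes, 56, was 7 with only the WT and SMA libraries (6 higher), 35 without a filter on low values (33 higher) and 100 with a weight per library (94 higher). It was 48 with a replicate block and 47 with that block and scaling. Same-numbered WT and SMA libraries had deviations from the group means with r of -0.114, -0.0413 and 0.0702. These values showed no shared deviation, but with 3 libraries per group they cannot exclude a pairing. Leaving out 1 library, with or without scaling, gave 21 to 58 calls (20 to 53 higher, 1 to 8 lower), with 21 when SMA 1 was left out and 32 without WT 1. Besides Smn1, which has a mean under 5 TPM over the libraries, few genes fell: the count of lower genes was 2 with median-of-ratios scaling, 2 with the replicate block and that scaling, 2 without a filter, 4 with quantile normalization (Grm7, Layn, Smn1 and Yjefn3), 6 with a weight per library and 0 with a filter at a mean of 5 TPM. The changes of 5 uncalled marker or receptor genes turned sign when 1 library was left out together with median-of-ratios scaling, and none unscaled. Over fits without 1 library, scaled or not, Bsg ranged from -0.083 to 0.82, Hba-a1 from -0.11 to 1.16, Hba-a2 from -0.19 to 1.15, Hbb-bs from -0.16 to 1.2 and Ifnar2 from -0.0086 to 0.74 (log2). The cause of these shifts was not tested. Over all named results and settings, 3954 values kept direction and side of the threshold, 428 lost and 52 gained a call, and 7 reversed.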
